A study of Homo sapiens with 16 samples.

Results

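The comparison described here sets 2 libraries of HCC70 cells carrying short hairpin RNAs (shRNAs) against FOXA1 beside 6 libraries of the same cells carrying control hairpins. These are 8 of the 16 libraries of the series. HCC70 is a widely used cell line from a triple-negative breast tumour with basal-like expression, and per its design text the series concerns regulators of how basal-like cancer cell populations are composed. The FOXA1 1 library carries hairpin TRCN0000014881 and the FOXA1 2 library carries hairpin TRCN0000358448, so each hairpin has 1 library. The controls are 2 libraries each of shRFP, shLACZ and shLUC, constructs named for a red fluorescent protein, beta-galactosidase and luciferase, which human cells lack. Every control library also carries a hairpin identifier of its own, so that the spread among the 6 controls includes differences between control hairpins. All 8 libraries came from infected cells, and no uninfected cells enter the comparison. The labels name no dose, time or selection. They do not say which libraries came from separate cultures, so p-values measure only the spread between these libraries, which may be partly technical. The 2 libraries of the plko construct were left out of the controls. Where they lay is given for the genes called with both hairpins together and for some others.

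The members are the genes with a normalized value of 5 or more in at least 2 of the 8 libraries, which are 10320 of the 11282 genes in the table. The other 962 genes were not tested. Just inside this limit lay SLC45A4 and NSMAF, whose second highest value was 5.04, and just outside lay HECW1 and OSBPL5, at 4.79. Recovered totals were 1200672 reads in FOXA1 1 and 537502 in FOXA1 2, against 580015 to 1264671 in the controls, so FOXA1 2 was the shallowest of the 8 libraries. A single read was worth 0.658 in FOXA1 1 and 1.502 in FOXA1 2 on the normalized scale. In FOXA1 2, 114 of the genes tested (1.10%) had no read, against 9 genes (0.0872%) in FOXA1 1 and 12 to 65 genes in the controls. The 10 basal-like markers fixed for the check of identity, KRT5, KRT14 and KRT17 among them, were all in the table and summed to 10972 in FOXA1 1, 7168 in FOXA1 2 and 6320 to 9145 in the controls. Of 14 fibroblast and endothelial markers 5 were in the table and summed to 13.2 to 31.5 in all 8 libraries, and of 16 leukocyte markers 2 were in the table and summed to 21.6 to 40.8.

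FOXA1 is a forkhead transcription factor that opens closed chromatin ahead of other factors and is therefore called a pioneer factor. In the breast it is known as a factor of the luminal lineage, where it works with steroid hormone receptors, and it is generally low in basal-like tumours. A hairpin is processed into a short RNA that directs the degradation of the matching transcript, and unrelated transcripts can also be hit, which is why more than 1 hairpin is used for a target.

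The FOXA1 transcript (ENSG00000129514) was at 24.4 in FOXA1 1 and at 58.6 in FOXA1 2, and in the controls it ran from 67.6 through a median of 95.8 to 160.08. Both hairpin libraries therefore lay below the lowest control, and FOXA1 1 lay furthest below. The remaining transcript was 24.4% of the control mean of 99.97 ± 33.5 (SD, n = 6) with hairpin 1 and 58.6% with hairpin 2. The log2 difference, hairpins minus controls on the scale of log2(value + 1), was -1.32 ± 0.28 (SE) for both hairpins together and missed the threshold of 0.05 at a limma adjusted p of 0.0504. With hairpin 1 alone it was -1.93 ± 0.33 (adjusted p = 0.00711), with hairpin 2 alone -0.70 ± 0.33 (adjusted p = 0.54). The difference between the hairpins was itself -1.23 ± 0.43 and did not pass (adjusted p = 0.617). An exact two-sided permutation test of 2 libraries against 6 has 28 arrangements and gave p = 0.0714, the smallest it allows. In the other libraries of the series the FOXA1 transcript was at 92.7 and 162.95 with plko, 125.12 and 130.68 with hairpins against KLF5, 65.1 and 89.1 with hairpins against RBPJ, and 82.7 and 123.6 with hairpins against NFIB.

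With the FOXA1 hairpins together, 13 of 10320 genes passed (0.126%), 4 higher (0.0388%) and 9 lower (0.0872%). The 4 that rose were S100A7, S100A8, SERPINB4 and ZC3H12A, of which the first 3 are products of inflamed or differentiating squamous epithelium. The 9 that fell were AGR2, SPTSSB, ANKRD52, CDC42EP1, SERF2, PLP2, SH3BGRL3, S100P and CIZ1, led by AGR2, a secretory-pathway gene of luminal breast cells. Before adjustment 970 genes (9.40%) had a p under 0.05, 340 of them higher and 630 lower. These are bulk libraries, in which fewer cells of a type and less RNA per cell cannot be told apart. Without regard to a test, both FOXA1 libraries lay above all 6 controls for 482 genes (4.67%) and below all 6 for 603 genes (5.84%).

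**Figure D1:**
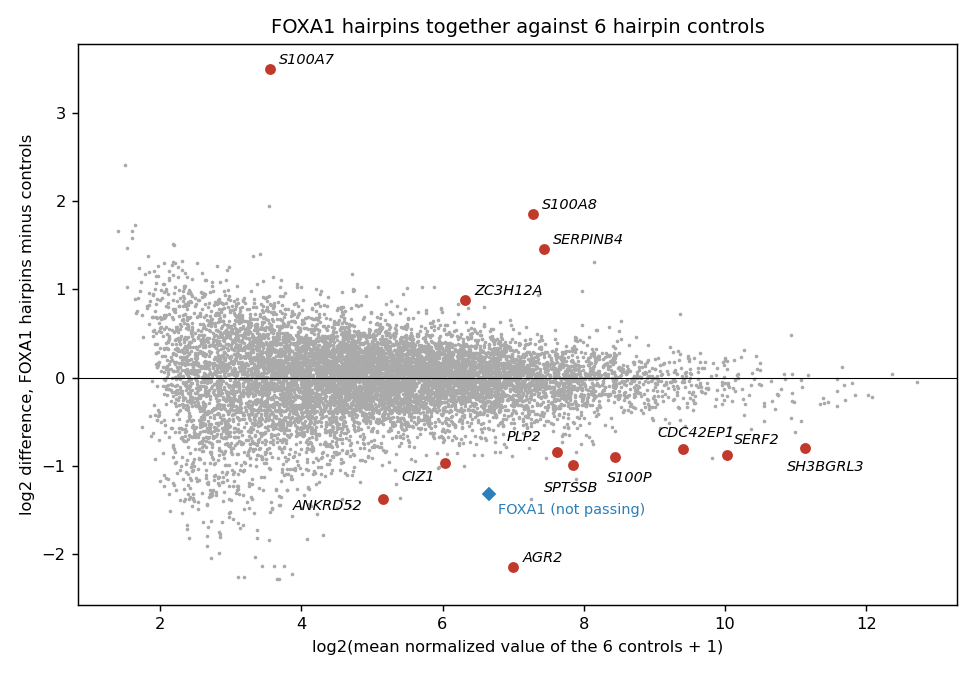
Each point is 1 of 10320 genes, placed by the log2 of its control mean plus 1 (x axis) and by the log2 difference of the FOXA1 hairpins minus the 6 controls (y axis). Red points are the 13 genes that passed, from S100A7 at 3.49 to AGR2 at -2.15, and the blue diamond is the FOXA1 transcript at -1.32, which missed the threshold.

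AGR2 encodes a protein disulfide isomerase of the endoplasmic reticulum that helps fold mucins and is abundant in luminal and other secretory epithelium. It was at 25.7 in FOXA1 1 and 27.0 in FOXA1 2, and in the controls it ran from 85.9 through a median of 112 to 225. The hairpin libraries were within 2 units of each other and both lay far below the lowest control. AGR2 fell by 2.15 ± 0.25 on the log2 scale (adjusted p = 4.27e-05). Set apart, the log2 difference was -2.18 ± 0.35 with hairpin 1 (adjusted p = 0.00592) and -2.11 ± 0.35 with hairpin 2 (adjusted p = 0.00566). Both plko libraries, at 124 and 147, also lay above the FOXA1 libraries. For both hairpins together, AGR2 was the called gene that passed under all 23 alternative settings. With hairpin 1 alone its call was lost with all 16 libraries in the fit (-2.18), with plko among the controls (-2.23) and without both shRFP libraries (-2.32). With hairpin 2 alone the AGR2 call was lost with edgeR (-2.26) and with DESeq2 (-2.24).

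The 250 bases before the RefSeq start of AGR2 (GRCh38.p14, minus strand, chr7:16805000-16805249) are shown because AGR2 had the largest fall of the genes that passed and because forkhead factors bind short AT-rich words. The region before the start of S100A7 (minus strand, chr1:153460652-153460901), the gene with the largest rise, is set beside it. Capitals mark forkhead words.
AGR2: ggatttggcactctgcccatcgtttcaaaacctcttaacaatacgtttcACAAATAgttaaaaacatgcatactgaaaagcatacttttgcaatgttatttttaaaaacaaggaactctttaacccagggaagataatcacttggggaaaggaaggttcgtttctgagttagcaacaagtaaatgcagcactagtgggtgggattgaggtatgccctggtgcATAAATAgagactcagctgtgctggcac
S100A7: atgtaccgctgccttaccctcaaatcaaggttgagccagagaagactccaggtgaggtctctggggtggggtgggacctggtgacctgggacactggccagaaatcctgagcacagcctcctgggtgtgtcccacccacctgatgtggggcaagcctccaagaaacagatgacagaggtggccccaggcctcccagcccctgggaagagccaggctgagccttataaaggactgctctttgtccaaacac
Both strands were searched for 8 words of 7 letters. The first is the forkhead consensus TGTTTAC, followed by its variant TATTTAC. The variants ending in the letters GC were TGTTTGC, with its partner word TATTTGC. Those ending in the letters AT were TGTTTAT, with its partner word TATTTAT. Those ending in the letters GT were TGTTTGT, with its partner word TATTTGT. AGR2 holds a pair of them, read on the other strand, beginning 201 and 28 bases before the start, and the word nearer the start also resembles a TATA box. S100A7 holds none in this window. Of the 13 genes that passed, 2 hold such a word (15.4%, AGR2 and SERF2), and of 8536 genes tested that have a RefSeq window 1087 do (12.7%), which is nearly the same share. A match is a description of the letters and no site of binding.

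S100A7 (psoriasin), a calcium-binding protein of inflamed and differentiating keratinocytes, was at 101 in FOXA1 1 and at 129 in FOXA1 2. In the controls it ran from 4.28 through a median of 8.84 to 20.8, so that no control came near the hairpin libraries. It rose by 3.49 ± 0.41 on the log2 scale (adjusted p = 4.27e-05), by 3.32 ± 0.56 with hairpin 1 (adjusted p = 0.00711) and by 3.67 ± 0.56 with hairpin 2 (adjusted p = 0.00317). S100A8, a subunit of the antimicrobial complex calprotectin, was at 565 and 487, and ran from 104 through 122 to 275 in the controls. Its lower hairpin library was still above the highest control, shLUC 1. It rose by 1.85 ± 0.25 (adjusted p = 0.000337), by 1.96 ± 0.34 with hairpin 1 (adjusted p = 0.0097) and by 1.74 ± 0.34 with hairpin 2 (adjusted p = 0.022). Its call with hairpin 2 was lost without shRFP 1, shRFP 2 or shLACZ 2 (adjusted p = 0.0579, 0.0577 and 0.0537). The plko libraries were at 0 and 10.53 for S100A7 and at 17.6 and 97.9 for S100A8, below both FOXA1 libraries. The S100A7 value of 0 in plko 1 allows a value of up to 6.62 for 3 reads. The hairpin 1 and hairpin 2 comparisons use the same 6 controls, so their values are given side by side and are not independent of each other.

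SERPINB4, a protease inhibitor of squamous epithelium also known as a squamous cell carcinoma antigen, was at 579 in FOXA1 1 and 350 in FOXA1 2, and ran from 91.0 through 183 to 263 in the controls. Both hairpin libraries lay above all controls. It rose by 1.46 ± 0.26 (adjusted p = 0.0159), and set apart it passed with hairpin 1 (1.82 ± 0.34, adjusted p = 0.0149) but not with hairpin 2 (1.09 ± 0.34, adjusted p = 0.23), while the difference between the hairpins did not pass (0.73 ± 0.44, adjusted p = 0.944). Its near-identical neighbour SERPINB3 was at 372 and 227 against 81.3 to 228 in the controls and did not pass (0.93 ± 0.28, adjusted p = 0.235), and the assignment of reads that the pair has in common is not described by any label or file header. ZC3H12A, an RNase (regnase-1) that degrades transcripts of inflammatory cytokines, was at 139 and 153 against 72.8 to 85.0 in the controls. It rose by 0.88 ± 0.17 (adjusted p = 0.0305), with hairpin 1 at 0.81 ± 0.23 (adjusted p = 0.196) and hairpin 2 at 0.95 ± 0.23 (adjusted p = 0.082), neither of which passed alone.

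**Figure D2:**
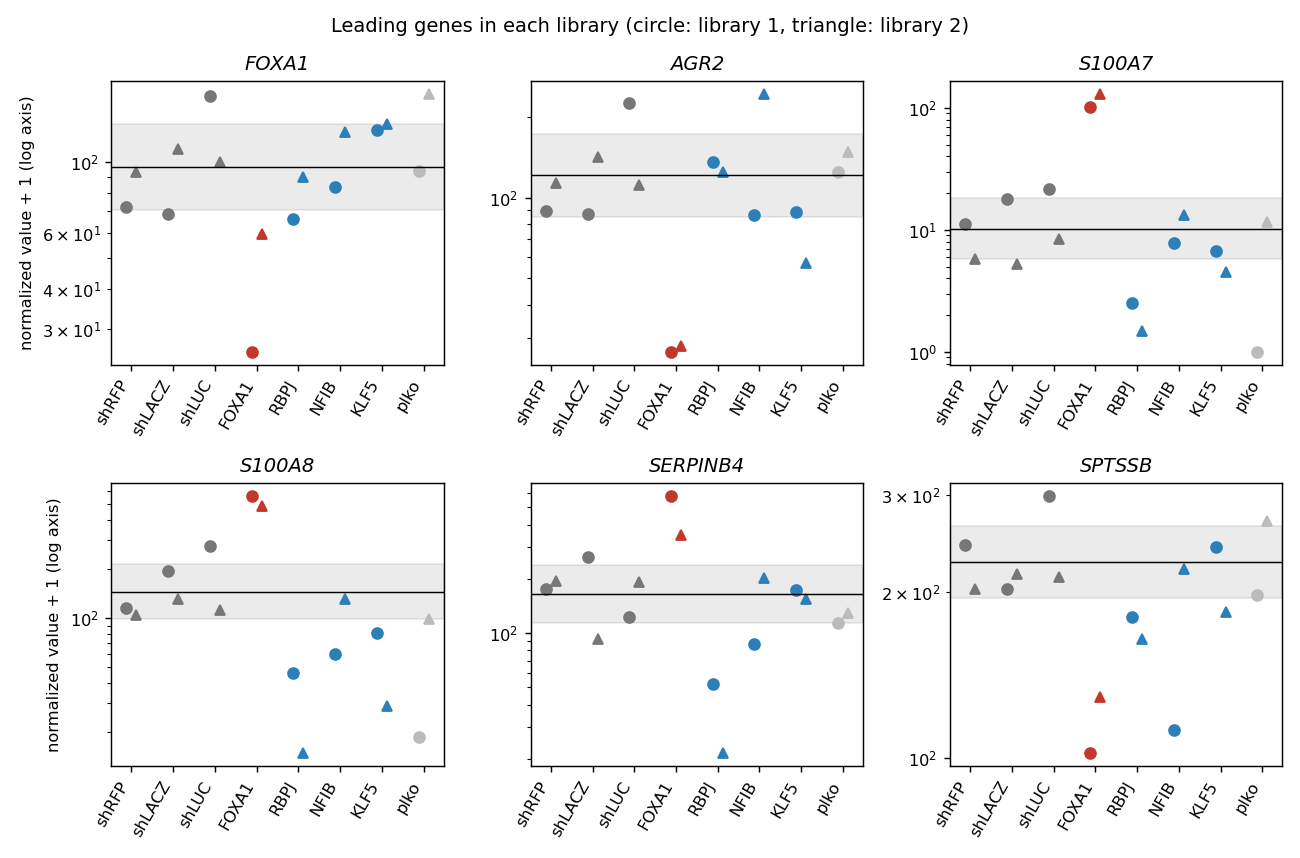
Normalized value plus 1 on a log axis in each of the 16 libraries, by construct on the x axis, for FOXA1, AGR2, S100A7, S100A8, SERPINB4 and SPTSSB. The line and band are the mean and 1 SD of the 6 controls on the log2 scale. The red FOXA1 hairpin libraries lie outside all 6 grey controls in every panel, and S100A7 is at 101 and 129 against a highest control of 20.8.

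SPTSSB, a small subunit of serine palmitoyltransferase, the enzyme that starts sphingolipid synthesis, was at 101 and 128 with the hairpins and ran from 201 through 214 to 299 in the controls. It fell by 0.99 ± 0.17 (adjusted p = 0.0146), and the plko libraries, at 196 and 269, also lay above both FOXA1 libraries. S100P, a calcium-binding protein of secretory and tumour epithelium, was at 165 and 198 against 243 to 441 and fell by 0.90 ± 0.19 (adjusted p = 0.0466). PLP2, a membrane proteolipid, was at 100.07 and 117 against 169 to 239 and fell by 0.84 ± 0.17 (adjusted p = 0.0305). In all of these the hairpin libraries lay below the lowest control. Set apart by hairpin 1 and hairpin 2, the log2 differences of SPTSSB were -1.16 and -0.82. Those of S100P were -1.03 and -0.77, and those of PLP2 were -0.95 and -0.73. SPTSSB passed with hairpin 1 and not with hairpin 2, and S100P and PLP2 passed with neither hairpin alone.

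CDC42EP1, an effector of the small GTPase CDC42 that acts on the actin cytoskeleton, was at 400.3 and 362 against 508 to 732 in the controls and fell by 0.81 ± 0.15 (adjusted p = 0.0235). SERF2, a small ubiquitous protein, was at 425 and 749.5 against 914 to 1265 and fell by 0.88 ± 0.17 (adjusted p = 0.0305). SH3BGRL3, a thioredoxin-like small protein, was at 1022 and 1637 against 2069 to 2579 and fell by 0.79 ± 0.16 (adjusted p = 0.0322). For the latter pair FOXA1 1 was the lower hairpin library, and both passed with hairpin 1 (SERF2 -1.28 ± 0.20, adjusted p = 0.00592, and SH3BGRL3 -1.13 ± 0.19, adjusted p = 0.00711) and not with hairpin 2 (SERF2 -0.47 and SH3BGRL3 -0.45). ANKRD52, a regulatory subunit of a protein phosphatase, was at 10.53 and 15.02 against 29.9 to 40.8 and fell by 1.38 ± 0.25 (adjusted p = 0.0204). CIZ1, a nuclear protein of DNA replication, was at 32.9 and 31.5 against 58.7 to 79.0 and fell by 0.97 ± 0.20 (adjusted p = 0.0466). Set apart by hairpin 1 and hairpin 2, the log2 differences of CDC42EP1 were -0.74 and -0.89. Those of ANKRD52 were -1.62 and -1.14, and those of CIZ1 were -0.939 and -0.999. ANKRD52 passed with hairpin 1 and not with hairpin 2, and CDC42EP1 and CIZ1 passed with neither hairpin alone.

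The left-out plko libraries bear on these calls. The plko 1 library was the shallowest of the series, at 375713 recovered reads, and a single read was worth 2.21 in it. ANKRD52 had 5 reads in plko 1. All 4 genes that rose, and AGR2 and SPTSSB among the 9 that fell, had both FOXA1 libraries beyond both plko libraries on the same side as beyond the other controls. The other 7 that fell did not. SERF2 was at 481 and 160 with plko, SH3BGRL3 at 973 and 546, PLP2 at 99.3 and 79.9, CDC42EP1 at 386 and 378, ANKRD52 at 11.03 and 19.8, CIZ1 at 26.5 and 35.9 and S100P at 188 and 362. With plko counted among 8 controls, 1 gene passed, and with all 16 libraries in the fit also 1, AGR2 in both. Without both shRFP libraries 3 genes passed and without shRFP 1 alone 5, whereas 32 passed without both shLUC libraries. The 8 genes that lost their call without shRFP 1 were ZC3H12A and all that fell but AGR2 and SPTSSB, at adjusted p of 0.0771 to 0.147. Without FOXA1 1, S100A7, S100A8 and AGR2 passed and the other 10 did not, and without FOXA1 2 ZC3H12A, CDC42EP1, PLP2, S100P and CIZ1 did not. S100P also lost its call without shLACZ 2 or shLUC 1, and CIZ1 without shRFP 2 or shLUC 1.

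Genes close to the threshold that did not pass are given as values. SPRR2A, a precursor of the cornified envelope of skin, was at 34.9 and 42.1 against 3.78 to 17.1 (log2 difference 1.94 ± 0.44, adjusted p = 0.0661). KRT4, a keratin of non-cornified squamous epithelium that is also used as a mark of luminal progenitors, was at 52.0 and 52.6 against 78.2 to 271 (-1.37 ± 0.30, adjusted p = 0.0577). Both of these genes had both hairpin libraries outside the controls. CYP1B1, a cytochrome P450 that oxidizes estrogens, was at 519 and 428 against 158 to 367 (0.98 ± 0.23, adjusted p = 0.0811). The genes next in order on the lower side, OTULINL and MAP2K7, were both at an adjusted p of 0.0504, the same as FOXA1.

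Genes of squamous differentiation, the programme by which stratified epithelium makes cornified cells, were measured for 20 members. S100A7, S100A8 and SERPINB4 rose and none fell, and 7 of the 20 (35.0%) had both FOXA1 libraries above all controls, against 4.67% of all genes tested. These were those 3 with SPRR2A, S100A9, KLK7 and KLK10. S100A9, the partner of S100A8 in calprotectin, was at 413 and 565 against 284 to 399.86 and did not pass (0.57 ± 0.16, adjusted p = 0.192). The kallikrein proteases of the skin KLK7 (111 and 152 against 51.0 to 88.2) and KLK10 (136 and 139.7 against 63.4 to 122) did not pass either, at adjusted p of 0.0871 and 0.128. KRT4 was the member below all controls. With plko, SPRR2A was at 2.21 and 11.2, S100A9 at 55.2 and 130, KLK7 at 24.3 and 88.6 and KLK10 at 6.62 and 27.3. All of these were under both FOXA1 libraries, and KRT4, at 66.2 and 264 with plko, was above both. In plko 1 the values of SPRR2A and KLK10 rest on 1 and 3 reads. The median log2 difference of the list was 0.50 for both hairpins together, 0.42 with hairpin 1 and 0.48 with hairpin 2, while single control libraries had list medians of -0.18 to 0.14 and the median over all genes was 0.003. Other members lay inside the control range, among them IVL (involucrin) at 27.6 and 25.5 against 13.9 to 51.5, and CSTA at 59.2 and 79.6 against 49.7 to 92.6.

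Markers of luminal epithelium, the secretory inner layer of the breast, were measured for 29 members. AGR2 fell, none rose, and 6 of the 29 (20.7%) had both FOXA1 libraries below all controls, against 5.84% of all genes tested, with none above. The other 5 did not pass. Among them were KRT7 (993 and 1143 against 1393 to 1589.5) and KRT19 (857 and 981 against 984 to 1430.5), keratins of simple epithelium, MUC1 (103 and 146 against 164 to 228), a membrane mucin, and FBP1 (54.0 and 73.6 against 79.9 to 132), an enzyme of gluconeogenesis. The adjusted p of these 4 ran from 0.163 for KRT7 to 0.403 for FBP1. KRT8 was at 112 and 192 against 177 to 256, with FOXA1 2 inside the control range. With plko, KRT7 was at 953 and 1198, on either side of the FOXA1 libraries. KRT19, at 843 and 696, and KRT8, at 22.1 and 14.2, were lower with plko than in both FOXA1 libraries. The list median was -0.33 for both hairpins together, -0.31 with hairpin 1 and -0.30 with hairpin 2, and -0.10 to 0.09 in single control libraries. The 7 luminal markers fixed for the check of identity summed to 1148 and 1398 with the hairpins and to 1425 to 1873 in the controls.

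**Figure D3:**
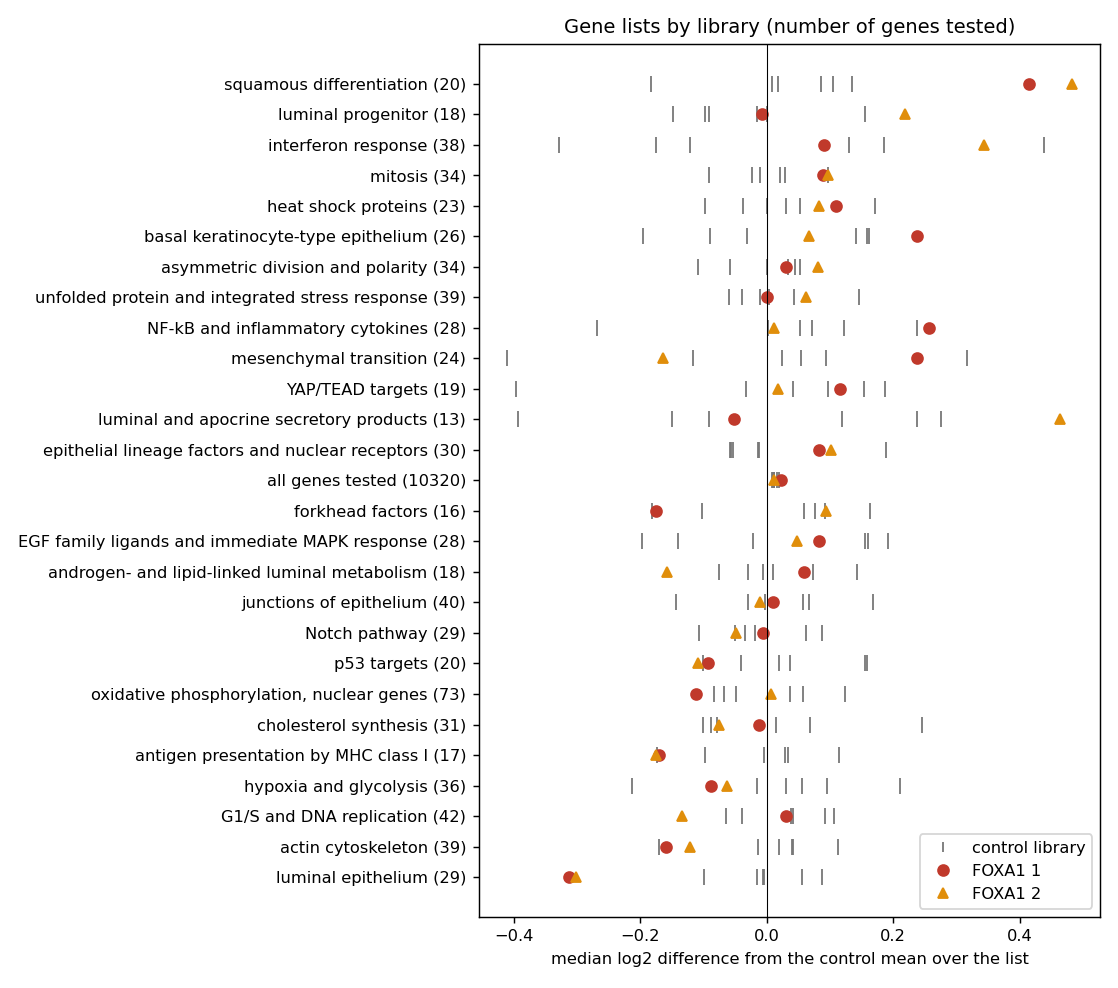
Median log2 difference from the control mean over each gene list (x axis), in each control library (grey ticks) and in the FOXA1 1 (red circle) and FOXA1 2 (orange triangle) libraries, with the number of genes tested beside the name. Of 26 lists, both hairpin libraries lay above all control libraries for squamous differentiation (0.42 and 0.48) and below all for luminal epithelium (-0.31 and -0.30).

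In the other luminal lists the medians of the hairpin libraries were not both below those of all controls. Of 13 secretory products of luminal and apocrine cells none passed, 2 (15.4%) lay below all controls against 5.84% of all genes, and none lay above, while their median was -0.05 with hairpin 1 and 0.46 with hairpin 2. AZGP1, a zinc-binding glycoprotein of apocrine secretion, was at 282 and 560 against 203 to 555 in the controls. Those below were CST3, the protease inhibitor cystatin C, at 39.5 and 46.6 against 47.9 to 91.8 (-0.74, adjusted p = 0.222), and SLPI. SLPI, a secreted protease inhibitor, lay below all controls at 1349.7 and 1486 against 1647 to 2355.5 and did not pass (-0.46, adjusted p = 0.293). With plko, SLPI was at 1551 and 968, on either side of the FOXA1 libraries, and CST3 at 83.8 and 52.7, above both. Of 30 epithelial lineage factors and nuclear receptors none passed. XBP1, a factor of the secretory stress response, was at 165 and 129 against 134 to 173, and ELF3, an epithelial ETS factor, at 399 and 565 against 495 to 562. ESR1, the estrogen receptor, was at 1.98 and 6.01 against 3.40 to 10.7, which are counts of a few reads. Of 18 luminal progenitor genes S100A8 rose, and of the others KRT15 (69.8 and 70.6 against 32.1 to 55.5), CD14 (56.6 and 63.1 against 37.4 to 55.2) and S100A9 lay above all controls without passing. In all 4 of the 18 (22.2%) were above all controls, against 4.67% of all genes, and KRT4 and SLPI, 2 of the 18 (11.1%), were below, against 5.84%.

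Of the forkhead family, whose members share the DNA-binding domain of FOXA1, 18 of 37 listed were in the table and 16 were tested. None passed for both hairpins together, and FOXA1 alone passed with hairpin 1. FOXO1, a forkhead factor restrained by insulin signalling, was the other member below all controls, at 24.4 and 27.0 against 27.2 to 50.7 (-0.49 ± 0.25, adjusted p = 0.55), with FOXA1 2 only just outside. FOXC1, a factor of basal-like breast cancer, was at 103 and 144 against 83.7 to 138 (0.13 ± 0.20, adjusted p = 0.884). FOXM1, a factor of mitosis, was at 44.1 and 57.1 against 46.7 to 75.5 (-0.26 ± 0.21, adjusted p = 0.744). The remaining members lay between log2 differences of -0.62 (FOXO6) and 0.57 (FOXN2).

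Of 26 genes of the basal, keratinocyte-type layer none passed, and 1 lay above and 1 below all controls (3.85% each, against 4.67% and 5.84% of all genes). The one below was ITGB4, an integrin of hemidesmosomes, at 11.8 and 10.51 against 12.7 to 21.4. KRT14, a keratin of basal cells, was at 85.6 and 79.6 against 19.3 to 66.7, above all controls (1.02 ± 0.33, adjusted p = 0.271). KRT5, its partner, was at 4517 in FOXA1 1, above the controls, and at 2651 in FOXA1 2, inside their range of 2527 to 3706, and KRT17 was at 1352 and 733 against 579 to 1329. The list median was 0.24 with hairpin 1, 0.07 with hairpin 2 and -0.20 to 0.16 in single control libraries. Of 39 genes of the actin cytoskeleton none passed, and 9 (23.1%) lay below all controls, against 5.84% of all genes tested, with 1 above. Among these were PFN1 (profilin, 1202 and 1446 against 1589 to 2320.4, -0.62 ± 0.15, adjusted p = 0.0866), ZYX (zyxin, 165 and 168 against 209 to 327) and CFL1 (cofilin, 1211 and 1418 against 1535 to 1794). Both FOXA1 medians of that list, -0.16 and -0.12, were inside the span of the control libraries, -0.17 to 0.11.

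S100A7, S100A8, S100A9 and SPRR2A lie in the epidermal differentiation complex of chromosome 1, a dense cluster of genes for S100 proteins and cornified envelope precursors. Between S100A10 and S100A13 the RefSeq order (GRCh38.p14) holds 62 protein-coding genes, of which 15 were tested, a stretch chosen after the values were seen. The 4 genes above all controls, SPRR2A, S100A9, S100A8 and S100A7, follow each other among the genes measured, and the other 11 overlapped the controls. S100A6, next after S100A7, was at 6490 and 6495 against 5476 to 7840, and SPRR1B, next before SPRR2A, was at 18.4 and 7.51 against 4.25 to 28.7. S100A11, farther off, was at 5413 and 5368 against 4429 to 5887.5. Of the 15, S100A7 and S100A8 passed.

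**Figure D4:**
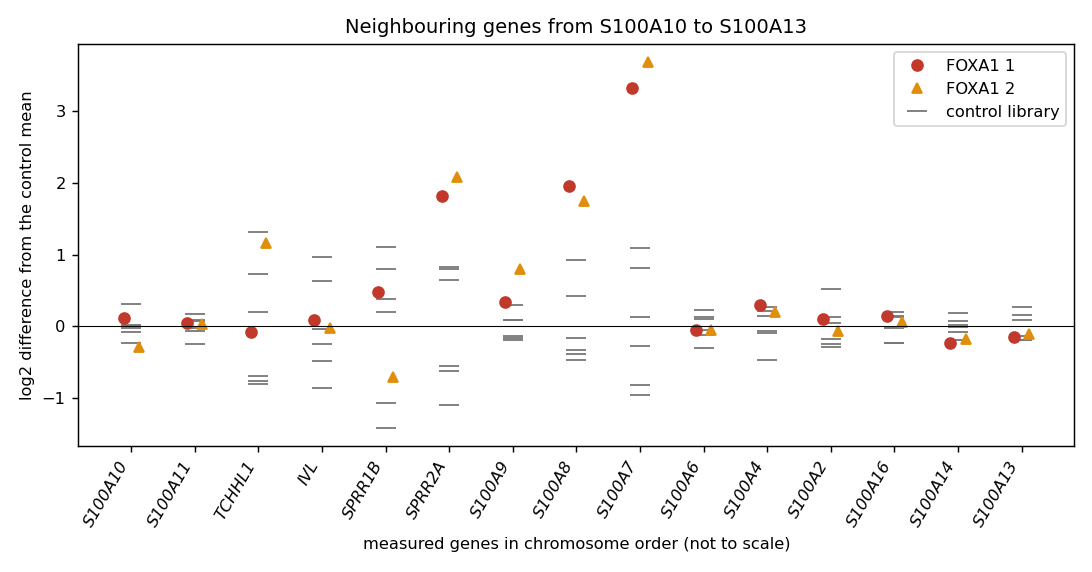
Log2 difference from the control mean (y axis) of the 15 measured genes from S100A10 to S100A13 in chromosome order (x axis, not to scale), for FOXA1 1 (red circles), FOXA1 2 (orange triangles) and each control library (grey ticks). The run from SPRR2A to S100A7 lies above all controls in both hairpin libraries, and the genes on either side overlap them.

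Each hairpin was then set separately against the 6 controls, and a lone library was taken to vary as the controls do. With hairpin 1, 22 genes passed (0.213%), 4 higher (0.0388%) and 18 lower (0.174%), and 686 (6.65%) had an unadjusted p under 0.05. The fourth that rose, beside S100A7, S100A8 and SERPINB4, was HMOX1, the heme oxygenase induced by oxidative stress, at 167 in FOXA1 1, 64.6 in FOXA1 2 and 38.1 to 59.1 in the controls (1.70 ± 0.28, adjusted p = 0.00605). The lowest adjusted p among those that fell was for PPIB, the endoplasmic reticulum cyclophilin B, at 119.8 in FOXA1 1, 427 in FOXA1 2 and 293 to 380 in the controls (-1.48 ± 0.20, adjusted p = 0.00181). HMOX1 was also above the highest control in RBPJ 2 (152), NFIB 1 (115) and NFIB 2 (69.2), but not in the RBPJ 1, KLF5 and plko libraries. PPIB was also under the lowest control with the hairpins against the other factors. It was at 152 and 271 with RBPJ, 143.5 and 273 with NFIB and 135 and 137 with KLF5 hairpins. Of the plko libraries, plko 2 was under the lowest control for PPIB, at 218, and plko 1 was inside the control range, at 298. SMIM14, a small membrane protein (57.3, 146 and 131 to 214), NADK, the NAD kinase (44.1, 128 and 91.0 to 122), and ARF3, a small GTPase of the Golgi (146, 319.9 and 281 to 356, each in the order FOXA1 1, FOXA1 2 and controls), also fell, with log2 differences of -1.58, -1.29 and -1.10. The antioxidant enzyme GPX4 was at 119.8, 227 and 214 to 336 in that order and fell by 1.18 ± 0.23 (adjusted p = 0.0197). The others that fell were FOXA1, AGR2, SERF2, SH3BGRL3, SPTSSB and ANKRD52, described above, and FAM89B, CAPNS1, SSU72, CLIC3, LGALS9, NUBP2 and PSMB9. For FAM89B and ARF3 FOXA1 2 lay close to the control mean, with log2 differences of 0.04 and 0.03. For PPIB and NADK it lay above all 6 controls, with log2 differences of 0.35 and 0.22. With plko, NADK was at 46.3 and 62.0, ARF3 at 194 and 234, FAM89B at 39.7 and 26.0 and CAPNS1 at 300 and 250. Both plko libraries were under the lowest control for these genes, and for SMIM14, at 362 and 211, they were not.

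With hairpin 2, 28 genes passed (0.271%), 2 higher (0.0194%) and 26 lower (0.252%), and most of these rest on very few reads. S100A7 and S100A8 rose. Of the 26 that fell, 21 had at most 3 reads in FOXA1 2, and 12 of them had none, where the control mean of 19 of the 26 was under 20. STK16, a membrane-bound kinase, for instance had no read in FOXA1 2, which allows a value of up to 4.51 for 3 reads, and ran from 6.93 to 18.3 in the controls and was at 7.90 in FOXA1 1. The 5 that fell with more than 3 reads were AGR2, CLDN1, CTDNEP1, FIBP and TMEM80. CLDN1, the tight-junction protein claudin-1, was at 178 in FOXA1 1, 119 in FOXA1 2 and 208 to 288 in the controls, so that both libraries were below all controls (hairpin 1 -0.46 ± 0.22, adjusted p = 0.743, and hairpin 2 -1.05 ± 0.22, adjusted p = 0.0335). CTDNEP1, a phosphatase of the nuclear envelope, was at 95.5 in FOXA1 1, inside the controls' 87.8 to 106, and at 45.1 in FOXA1 2 (-1.11 ± 0.23, adjusted p = 0.0337). FIBP, an intracellular partner of acidic fibroblast growth factor, was at 38.8, 15.02 and 34.3 to 50.3 in the same order. With a mean of at least 20 over the 8 libraries required, 3 genes passed with hairpin 2, with edgeR on the recovered reads 2, and with DESeq2 0 (910 genes, 8.82%, had an unadjusted limma p under 0.05).

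Tested against each other, the 2 hairpins differed in 1 gene (0.00969%). This was PPIB, whose log2 difference, hairpin 1 minus hairpin 2, was -1.82 ± 0.26 (adjusted p = 0.00462). With all 16 libraries in the fit PPIB did not pass (adjusted p = 0.153), nor with plko among the controls (0.253) or without both shRFP libraries (0.0599). Before adjustment 576 genes (5.58%) had a p under 0.05, 316 of them higher and 260 lower with hairpin 1. For HMOX1 the difference between the hairpins was 1.36 ± 0.36 (adjusted p = 0.354) and did not pass. With a single library on each side, a p that misses the threshold does not show that the hairpins act alike.

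**Figure D5:**
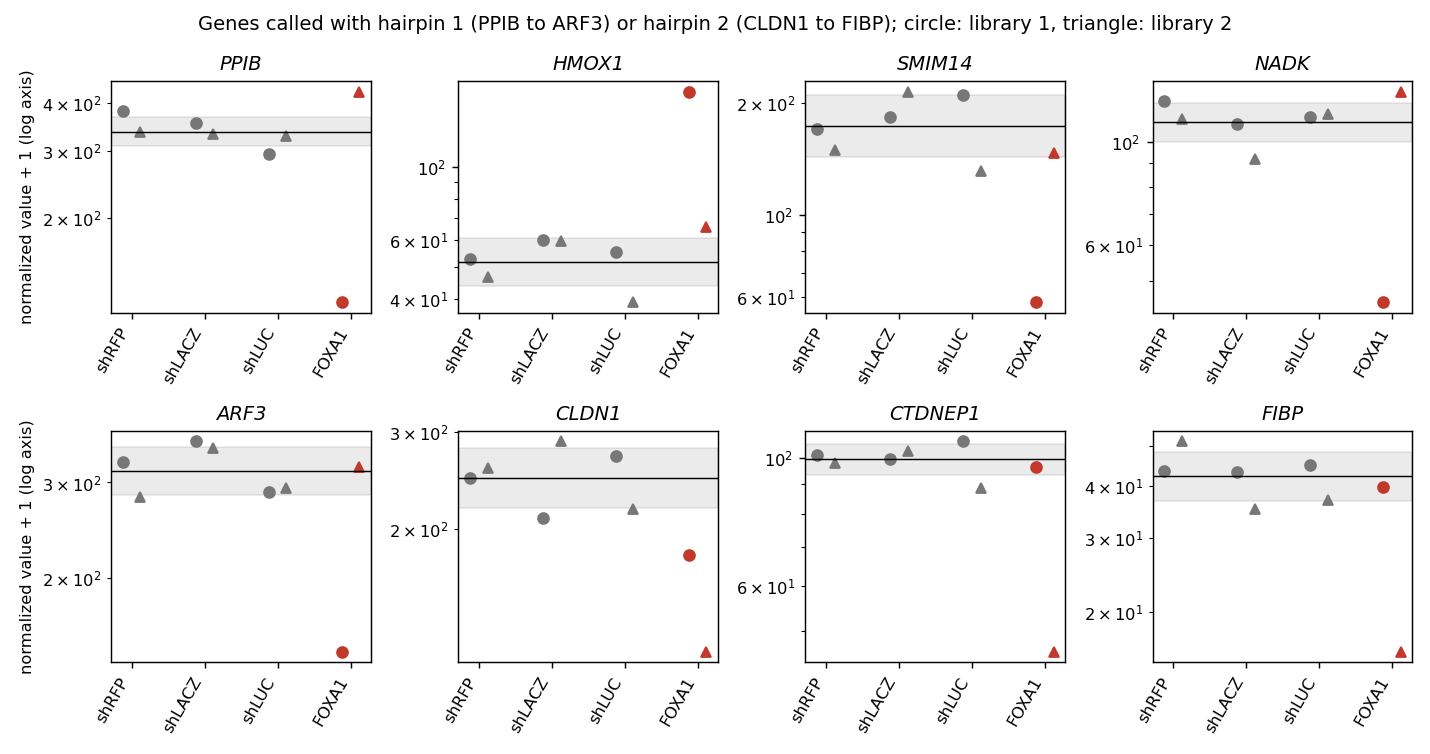
Normalized value plus 1 on a log axis in the 6 controls (grey) and the 2 FOXA1 hairpin libraries (red, circle for FOXA1 1 and triangle for FOXA1 2), with the control mean and 1 SD as line and band on the log2 scale. PPIB is at 119.8 in FOXA1 1 and 427 in FOXA1 2, and CTDNEP1 at 95.5 and 45.1.

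The FOXA1 libraries were also compared directly with the libraries of hairpins against the other 3 factors, which does not use the controls except for the error. Against RBPJ, the DNA-binding partner of Notch receptors, 13 genes passed (0.126%), 12 higher (0.116%) and 1 lower (0.00969%) with FOXA1 hairpins. Without FOXA1 1 the split was 7 higher and 26 lower, and without RBPJ 1 it was 144 higher and 41 lower. S100A7 was at 1.49 and 0.47 with RBPJ hairpins, S100A8 at 45.2 and 13.8 and SERPINB4 at 51.2 and 20.4, all under the lowest control, so that the direct log2 differences of 5.91 ± 0.79, 4.33 ± 0.60 and 3.76 ± 0.42 (adjusted p = 0.000633, 0.000886 and 7.08e-05) were larger than those from the controls. For these genes the direct difference therefore holds 2 departures from the controls, in opposite directions. AGR2 was at 135 and 124 with RBPJ hairpins, inside the control range, and the direct difference was -2.25 ± 0.39 (adjusted p = 0.0115). SERPINB3, S100A9, KLK7, CLEC7A, GNE, PABPC1, PABPC3 and PAPPA were among the others that passed, and were higher with FOXA1 hairpins. Both RBPJ libraries lay under the lowest control for all of these. FOXA1 2 for SERPINB3 and PABPC1, and FOXA1 1 for CLEC7A and GNE, lay inside the control range. CLEC7A, for example, was at 25.9 and 9.01 with RBPJ hairpins and at 59.2 and 66.1 with FOXA1 hairpins, against 47.1 to 64.8 in the controls.

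Against NFIB, a nuclear factor I protein, 6 genes passed (0.0581%), 3 in each direction (0.0291% each), and without FOXA1 1 there were 1 higher and 23 lower. AGR2 was at 85.4 and 243 with NFIB hairpins (-2.41 ± 0.39, adjusted p = 0.0103), and S100P at 826 and 588, above all controls (-1.94 ± 0.36, adjusted p = 0.0316). The others were GPX4, lower with FOXA1 hairpins, and PABPC1, PABPC3 and TOP1, higher. Both NFIB libraries lay above all controls for GPX4 and under the lowest control for PABPC1, PABPC3 and TOP1. PABPC1 and PABPC3 encode near-identical poly(A)-binding proteins, so the same limit on shared reads applies. Against KLF5, a zinc-finger factor of epithelium, 658 genes passed (6.38%), 344 higher (3.33%) and 314 lower (3.04%). The KLF5 libraries share low values of some genes with the plko libraries, and the part of this in the count was not tested. KRT8 was at 13.5 and 12.8 with KLF5 hairpins and 22.1 and 14.2 with plko, against 177 to 256 in the controls, and ACTB (beta-actin) at 161 and 275 with KLF5 hairpins and 489.8 and 539.7 with plko, against 1501 to 2225. Of the 13 genes called against the controls, 4 passed directly against RBPJ, 2 against NFIB and 8 against KLF5, counted in either direction. SERF2, which fell against the controls, was higher with FOXA1 than with KLF5 hairpins (1.37 ± 0.36, limma adjusted p = 0.0224). It was at 186 and 253 with KLF5 hairpins. CDC42EP1 was at 1046 and 1106 with KLF5 hairpins, above the highest control. AGR2 passed directly against RBPJ, NFIB and KLF5, in comparisons that share the FOXA1 libraries. Against KLF5 it was at 25.7 and 27.0 against 87.4 and 56.0 (-1.38, adjusted p = 0.0369).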

How the data were processed

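RNA of HCC70 cells was converted to 3′ cDNA, barcoded in batches and amplified by in vitro transcription after the CEL-Seq method, and some samples were run again, per the labels' protocols. The labels do not tie samples to batches or repeat runs. The authors deposited 1 table of a normalized signal per gene, which its name ascribes to DESeq2, and the submitters' processing notes name build GRCh37. For the aligner, counting tool and use of strand, nothing is stated. In each library 100% of deposited values were whole multiples of 1 read within 0.05, so whole reads were recovered for the count-based alternatives. The table has 2 columns that match no sample and were not used. Symbols were found for 11259 of 11282 identifiers.

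Genes that reached a value of 5 in 2 of the 8 libraries were tested with limma 3.58.1 (R 4.3.3, mean-variance trend) on log2(value + 1), with Benjamini-Hochberg adjusted p under 0.05 over all genes, two-sided. These differences understate the change of low genes. The FOXA1 libraries were fitted as 1 group and, in a second fit, as separate levels, and the contrasts with other targets came from a fit of all 16 libraries. The tests were chosen for a normalized signal. Libraries of the same construct differed beyond counting noise (chi-square per degree of freedom 1.91 to 3.33), so none was treated as a library deposited again, which does not show that they are independent cultures. Simulated data held 100 changed genes of each size. The fit of both hairpins together, run on 10412 genes, recovered 64% of 2-fold and 96% of 4-fold changes with 14 false calls. That of hairpin 1 recovered 34% and 85% with 9 false calls. The changed genes were drawn only from genes above a minimum mean of reads, so recovery for genes with fewer reads was not measured.

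Members and gene lists were chosen with earlier results of these data known. Named genes were the forkhead factors, the 15 genes with the smallest p in each direction together and the 8 in each single-hairpin comparison, with a mean of at least 20, and members of the lists that passed or had the highest means. A count of 0 was read as allowing 3 reads, which covers counting error only. Alternatives were another pseudocount, filter, scaling, set of controls or tool (edgeR 4.0.16, DESeq2 1.42.0), libraries left out, weights and the replicate block.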

Additional observations from a re-analysis of the deposited data

Results flagged for a closer look

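In 5 named genes and 1 gene list, 1 of the 6 controls stood apart from the other 5 by Dixon's test, which flags about 1 in 20 groups by chance. The test was run on every gene named for its p or as a passing list member, and on 26 lists. Some of these flags can therefore arise by chance. CDC42EP1, which fell with the FOXA1 hairpins, was at 507.96 in shLUC 1 and at 656 to 732 in the other controls, and both hairpin libraries, at 400.3 and 362, lay below shLUC 1 as well. KLK10 was at 122.08 in shLACZ 2 and at 63.4 to 78.9 in the others, and at 136 and 139.7 in the hairpin libraries. LIFR was at 15.49 in shLACZ 1 against 24.6 to 32.0, TMEM267 at 10.2 in shRFP 1 against 15.6 to 19.7, and ZDHHC4 at 27.2 in shRFP 1 against 22.5 to 24.0. The list of epithelial lineage factors and nuclear receptors had a median of 0.188 in shLUC 1 and of -0.06 to -0.01 in the other controls, on the log2 scale.

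PPIB was the gene that differed between the 2 hairpins by a test of the difference itself, at -1.823 on the log2 scale, hairpin 1 minus hairpin 2. FOXA1 1 was below and FOXA1 2 above all 6 controls for this gene.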

How the results depend on the processing

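The 13 calls of both hairpins together became 20 with a pseudocount of 5, 28 with DESeq2, 21 with array weights, 1 with all 16 libraries in the fit and 1 with plko among the controls, and 3, 23 and 32 without both libraries of shRFP, shLACZ and shLUC. Leaving out 1 library gave 5 (shRFP 1) to 28 (shLUC 2, and FOXA1 1), with 24 without shLACZ 1 and without FOXA1 2. Of the 13 called genes 8 lost their call without shRFP 1 and 10 without FOXA1 1. The 22 calls of hairpin 1 became 0 with all 16 libraries, 0 with plko, 41 with DESeq2, 0 without both shRFP and 54 without both shLUC libraries, and 15 to 30 with 1 library left out. Unadjusted limma p under 0.05 held for 686 genes with hairpin 1. The 28 calls of hairpin 2 became 50 and 5 with pseudocounts of 0.5 and 5, 3 with a mean of at least 20, 7 with quantile normalization, 14 with plko, 2 with edgeR, 0 with DESeq2, 12 without both shRFP and 52 without both shLACZ libraries, and 19 to 47 (without shLACZ 1) with 1 library left out. The S100A8 call of hairpin 2 was lost without shRFP 1, shRFP 2 or shLACZ 2. The single call between the hairpins became 9 with a pseudocount of 0.5, 0 with plko and 0 without both shRFP libraries. With all 16 libraries in the fit it was again 1, but another gene and in the other direction, and PPIB did not pass. It was 1 to 3 (without shLACZ 1) with 1 library left out. The causes were not tested.

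Direct calls against RBPJ were 13, 5 with the 4 libraries alone, and 5 to 185 with 1 library left out (185 without RBPJ 1, of which 144 were higher and 41 lower, and 33 without FOXA1 1, of which 7 were higher and 26 lower). Those against NFIB were 6, and 1 (without FOXA1 2) to 24 (without FOXA1 1, 1 higher and 23 lower), with 2 without NFIB 1. Those against KLF5 were 658, and 149 (without FOXA1 2) to 342 (without FOXA1 1), with 204 without KLF5 1 and 297 without KLF5 2. The FOXA1 transcript passed with a pseudocount of 5 (-1.23), edgeR (-1.44), DESeq2 (-1.36), array weights (-1.34) and without both shLACZ libraries (-1.40). In all it passed under 9 of 23 alternative settings. It did not pass with plko among the controls (-1.41, limma adjusted p = 0.439) or with all 16 libraries in the fit (-1.32, 0.184). Nor did it pass without both shRFP libraries (-1.44, 0.141). With 1 library left out it ran from -1.93 to -0.70, and passed without shLACZ 1 (adjusted p = 0.0207), shLUC 2 (0.0443) or FOXA1 2 (0.00667) and not without FOXA1 1 (0.518). The 1085 genes outside the controls became 525 with plko, 1700, 1785 and 2049 without both libraries of shRFP, shLACZ and shLUC, and 1258 to 3518 with 1 library left out.

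Replicate numbers showed no pairing of the libraries over all genes tested, where the same-numbered deviations of 2 constructs correlated at -0.04 to 0.08. A correlation over all genes cannot exclude pairing in some of them, and this was not tested gene by gene. With the number as a replicate block, 13 genes passed (11 of them the same), the FOXA1 transcript passed at -1.32 (adjusted p = 0.0466), and direct calls were 13, 6 and 690. Depth limits FOXA1 2, in which the median gene had 16 reads, against 38 in FOXA1 1.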

Other observations

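Interferon-stimulated genes, the antiviral set that infection or foreign RNA can induce, were measured for 38 members, and none passed. IFI6, a mitochondrial protein of this set, was at 533 and 733 against 142 to 524 in the controls (1.31, limma adjusted p = 0.0866), and SAMD9, an antiviral factor, was at 218 and 231 against 115 to 196 (0.43, adjusted p = 0.433). These were the members with both FOXA1 libraries above all controls, 2 of 38 (5.26%), which is near the 4.67% of all genes tested. MX1, an antiviral GTPase, was at 83.0 and 143 against 33.3 to 115. With plko, IFI6 was at 973 and 367, on either side of the FOXA1 libraries. The list median was 0.09 in FOXA1 1 and 0.34 in FOXA1 2, within the -0.33 to 0.44 of single control libraries.

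Of 34 genes of mitosis none passed, 5 (14.7%) lay above all controls against 4.67% of all genes, and 3 (8.82%) lay below against 5.84%. ANLN (anillin, a scaffold of the cleavage furrow) was at 319 and 333 against 192 to 303, ASPM (a spindle pole protein) at 69.8 and 63.1 against 31.0 to 57.5, and BUB1, NEK2 and NUSAP1 also lay above all controls. AURKB (a mitotic kinase) was at 115 and 116 against 124 to 166, and CDC20 and CDC25C also lay below all controls. Among antigen presentation genes PSMB9, a subunit of the immunoproteasome, fell with hairpin 1 (46.1 against 91.0 to 136, -1.17 ± 0.25, adjusted p = 0.0479) and was at 73.6 with hairpin 2 (-0.51, adjusted p = 0.568).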
